A study of Homo sapiens with 12 samples.

Results

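The genes of the proteasome and of its assembly factors were examined in human liver spheroids, chosen as all rows whose symbol consists of PSM, a letter from A to G and a number, with or without further letters. This rule found 49 of the 16705 genes in the table. Of these, 18 encode the core particle (PSMA and PSMB), 20 the regulatory cap and its chaperones (PSMC and PSMD), 4 the alternative activators (PSME1 to PSME4), 1 the regulator PI31 (PSMF1) and 4 the core assembly chaperones (PSMG). The remaining 2, PSMC3IP and PSME3IP1, carry the name of a binding partner and are no proteasome subunits. They were kept in the counts because the rule finds them, and they are named where they matter.

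RNA was measured in 12 libraries, 3 in each of 4 groups. Spheroids combined C3A cells, a hepatocyte-like subclone of the HepG2 hepatoma line, with LX-2 cells, an immortalised line derived from hepatic stellate cells, and several spheroids were pooled for each library. They were left untreated or exposed to 1% TPN, and collected after 24 h or 144 h. The authors state that exposure began on day 3 after seeding, so all spheroids were older than these times. TPN is a nutrient mixture for intravenous feeding that holds amino acids with electrolytes, glucose, a lipid emulsion, trace elements and vitamins. Neither immune nor endothelial cells were part of the model, and all 4 groups share the same pair of cell lines. Each exposed group was compared with untreated spheroids of the same time, the effect at 144 h was compared with that at 24 h, and untreated spheroids were compared between the times.

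The 26S proteasome degrades proteins tagged with ubiquitin. Its core is a barrel of α and β rings in which PSMB5, PSMB6 and PSMB7 cut peptide bonds, and interferon can replace these subunits with PSMB8, PSMB9 and PSMB10 to form the immunoproteasome. The cap consists of a base, where a ring of ATPases (PSMC1 to PSMC6) unfolds the substrate, and a lid, where PSMD14 removes the ubiquitin chain. In hepatocytes, as in other cells, transcription of the subunits is raised by NFE2L1 when proteasome activity falls short, and the related factor NFE2L2 binds the same kind of sequence, the antioxidant response element.

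Promoter sequences are shown for 5 genes described below, namely PSMD12 and PSME4, which rose under TPN at 144 h, and PSMG1, PSME2 and PSMC3, which fell. They come from RefSeq on GRCh38.p14 and hold up to 250 bases before the annotated start, without bases inside the gene as annotated. All 5 genes lie on the reverse strand and each sequence is written 5′ to 3′ in the direction of its gene. PSMD12 covers chr17:67366599-67366827, PSME4 covers chr2:53970994-53971243, PSMG1 covers chr21:39183515-39183701, PSME2 covers chr14:24146611-24146860 and PSMC3 covers chr11:47426474-47426689. Capitals mark the core of the antioxidant response element (TGACNNNGC, on either strand) in the first 3, the interferon-stimulated response element (TTTC and TTTC with NN between them, on either strand) in PSME2 and the CCAAT box in PSMC3. No marked motifs overlap. Each of the 5 genes was shown for a motif that it holds, so they are no sample of the members. PSME2 also holds an antioxidant response element core and PSMG1 a CCAAT box, both left in lower case.
PSMD12: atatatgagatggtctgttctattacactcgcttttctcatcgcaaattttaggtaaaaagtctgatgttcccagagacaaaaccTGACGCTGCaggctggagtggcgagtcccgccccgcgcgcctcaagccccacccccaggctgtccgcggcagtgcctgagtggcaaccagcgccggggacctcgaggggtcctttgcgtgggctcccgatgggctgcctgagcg
PSME4: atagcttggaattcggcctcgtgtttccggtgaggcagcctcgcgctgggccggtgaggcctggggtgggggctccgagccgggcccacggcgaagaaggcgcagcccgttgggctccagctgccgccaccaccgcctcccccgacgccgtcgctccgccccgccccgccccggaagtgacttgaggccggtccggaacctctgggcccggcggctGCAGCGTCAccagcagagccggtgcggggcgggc
PSMG1: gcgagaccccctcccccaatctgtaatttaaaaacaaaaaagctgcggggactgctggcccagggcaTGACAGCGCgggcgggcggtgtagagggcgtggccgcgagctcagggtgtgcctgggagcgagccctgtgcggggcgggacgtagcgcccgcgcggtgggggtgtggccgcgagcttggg
PSME2: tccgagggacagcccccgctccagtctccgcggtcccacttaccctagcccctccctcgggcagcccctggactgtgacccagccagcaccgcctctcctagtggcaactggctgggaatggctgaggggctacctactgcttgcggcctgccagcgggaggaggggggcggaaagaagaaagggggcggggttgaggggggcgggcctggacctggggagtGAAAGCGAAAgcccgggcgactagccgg
PSMC3: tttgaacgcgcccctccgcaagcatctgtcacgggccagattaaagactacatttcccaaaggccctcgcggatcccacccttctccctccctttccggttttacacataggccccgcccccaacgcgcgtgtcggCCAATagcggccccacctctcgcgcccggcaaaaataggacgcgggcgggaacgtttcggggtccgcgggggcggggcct

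Windows of 250 bases were found for 43 of the 49 genes, some with more than 1, and a gene was counted when any of its windows held a motif. The antioxidant response element core was present in 13 of them (30.2%), and in 15.1% of the 13333 genes of the table that had a window. Among the tested members with a window it was in 2 of the 8 that rose at 144 h of exposure, in 6 of the 16 that fell and in 5 of the 18 that were not called, so it stood before genes that moved either way. The interferon-stimulated response element was present in 5 of the 43 genes (11.6%) and in 3.48% of all genes with a window. It was in 1 of the 8 that rose, 2 of the 16 that fell and 2 of the 18 not called. The CCAAT box was present in 21 (48.8%) and in 40.9%. It was in 2 of the 8 that rose, 8 of the 16 that fell and 10 of the 18 not called. A match of letters is a description of the window and is no evidence of binding.

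Levels were given as FPKM, fragments divided by transcript length and by all fragments mapped, so genes can be compared per length. In untreated spheroids at 24 h, the α ring genes ran from 39.7 FPKM for PSMA5 to 379.5 FPKM for PSMA7, and the constitutive β ring genes from 32.8 FPKM for PSMB2 to 285 FPKM for PSMB1. The ATPases ran from 33.7 (PSMC1) to 142 FPKM (PSMC5) and the lid genes from 18.6 (PSMD12) to 107 FPKM (PSMD7). Core genes were thus listed at levels that differed several-fold among members of the same ring. The immunoproteasome genes were low, with PSMB10 at 23.1, PSMB8 at 17.5 and PSMB9 at 2.71 FPKM. PSMB11, the catalytic subunit of the thymus, was listed at 0 in 11 libraries and at 0.03 FPKM in replicate 1 of TPN at 144 h, and it was the only member below the filter of a mean of 0.5 FPKM. The other 48 were tested. The sum of FPKM ran from 561657 to 583722. Relative depths between 0.983 and 1.029 were read from the steps of low values in 47 short genes. Only genes whose values fitted a step common to all libraries were used, so these depths cannot show whether the libraries differed. With the lowest value of such a gene taken as 1 fragment, a fragment stood for a median of 0.0887 FPKM. The number of fragments per library was not estimated.

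**Figure D1:**
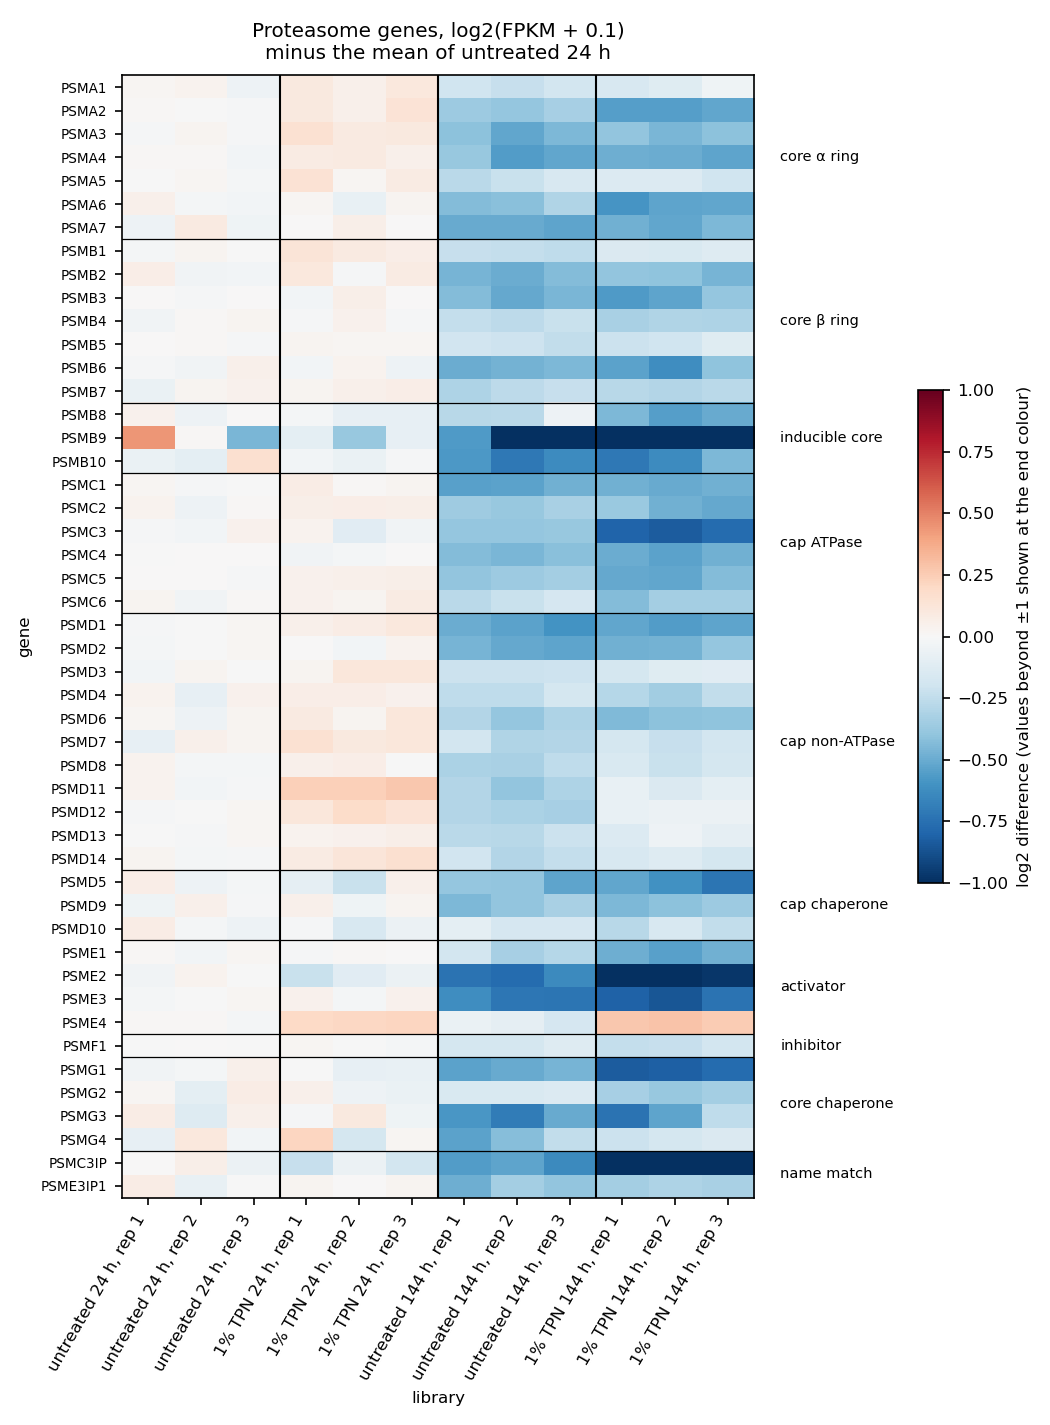
Rows are the 48 proteasome genes tested, by class, columns the 12 libraries, and colour the log2(FPKM + 0.1) of a library minus the mean of the 3 untreated libraries at 24 h (blue lower, red higher, values beyond 1 in either direction drawn at the end colour). Almost all genes are blue at 144 h, PSME4 turns red in the 3 exposed libraries at 144 h, and PSMB9 varies most between libraries of the same group.

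The first comparison was between untreated spheroids at 144 h and at 24 h. All 48 members tested were lower at 144 h, by between 0.11 (PSME4) and 0.95 (PSMB9) on the log2(FPKM + 0.1) scale. Among all 11713 genes tested, 52.4% were lower and 20.1% higher, so a fall was the more common outcome for any gene. The median log2 fold change was -0.36 over the members and -0.18 over all genes. When the libraries were scaled by median ratio, the median of all genes moved to -0.01 and that of the members to -0.185, 35 members were lower and 0 higher, with 33.7% of all genes lower and 33.1% higher. The other 13 members did not pass this test, and PSME4, PSMD10, PSMG2 and PSMF1 then had values above 0 (0.07, 0.03, 0.03 and 0.02). The decrease of those 13 members therefore depends on the scaling.

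Within the complex, the decrease was uneven. The scaffold genes of the base, PSMD1 and PSMD2, fell by 0.54 and 0.50, and by 0.36 and 0.32 after median-ratio scaling. The lid genes had a median of -0.28, or -0.10 after scaling. Among the activators, PSME2, which forms the PA28αβ ring with PSME1, had 124, 131 and 127 FPKM in the untreated libraries at 24 h and 76.4, 74.7 and 82.0 at 144 h. PSME3, which forms the nuclear PA28γ ring, had 75.3, 76.0 and 77.5 FPKM at 24 h and 49.5, 46.2 and 46.0 at 144 h. Both were clearly separate between the times, with log2 fold changes of -0.71 ± 0.05 (SE, adjusted p = 3.29e-08) and -0.69 ± 0.04 (adjusted p = 2.14e-09), while PSME1 fell by only 0.27. PSMB9, with 3.61, 2.64 and 1.89 FPKM at 24 h and 1.74, 1.15 and 1.12 at 144 h, fell by 0.95 ± 0.26 (adjusted p = 0.00503) from levels that rest on few fragments. PSMB10 had 22.1, 21.6 and 25.7 FPKM at 24 h and 15.4, 14 and 14.8 at 144 h. With PSMG3, which helps to build the α ring (-0.59), these were the 5 members that fell past the study's threshold of 0.58 in log2, as did 12.2% of all genes. After median-ratio scaling PSMB9 (-0.78) was the only member past it, with 5.46% of all genes, and PSME2 stood at -0.54, PSME3 at -0.51, PSMB10 at -0.46 and PSMG3 at -0.42. Leaving out replicate 1 of untreated 24 h ended the call of PSMD10 and leaving out replicate 3 of untreated 144 h that of PSME4. The other 46 calls held without each of the 12 libraries in turn.

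Markers of the stellate line moved with this comparison. Of its 10 listed markers 9 were tested, of which 7 were lower at 144 h and 1, LOX, was higher. Of all genes, 52.4% were lower and 20.1% higher. COL1A1 fell from 15.1 to 1.92 FPKM and VIM from 15.6 to 2.44, while LOX rose from 56.6 to 146, so that the summed level of the list ran from 154 to 158.4 FPKM at 24 h and from 197.8 to 207.5 at 144 h. PDGFRB stood at 3.1 and 3.08 FPKM. DES, the listed marker that was not tested, stood at no more than 0.09 FPKM in any library. Of 10 hepatocyte markers 4 were higher and 3 lower. Among leukocyte and endothelial markers, only CD14 reached 1 FPKM. In bulk samples, fewer cells of a type and less RNA per cell cannot be told apart, and the part of the stellate markers in the result was not tested.

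**Figure D2:**
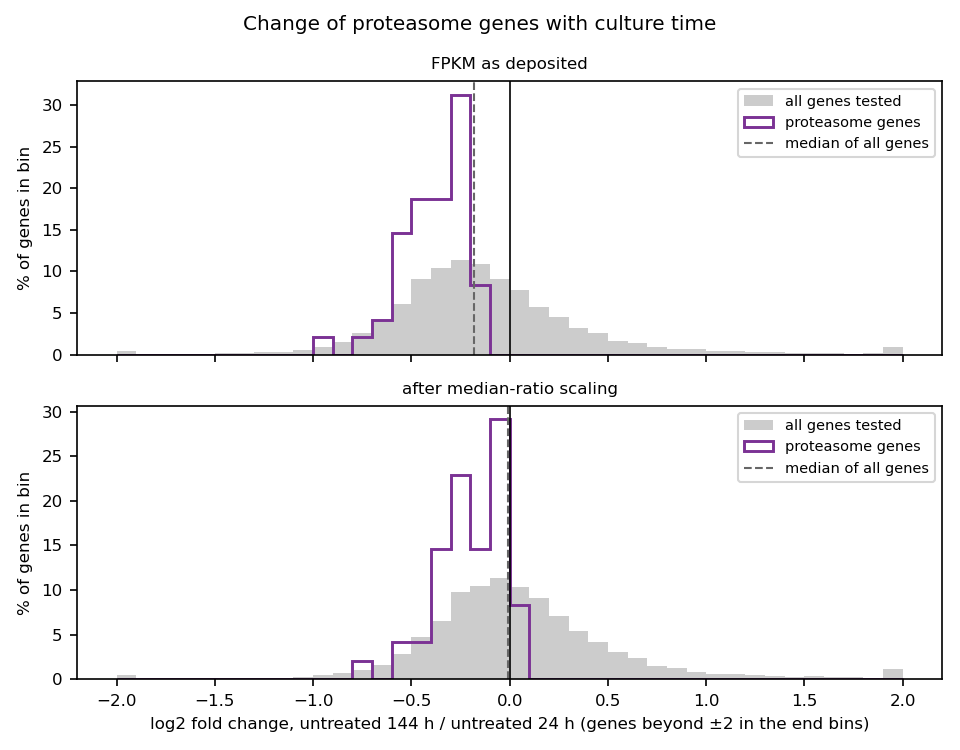
The x axis is the log2 fold change of untreated 144 h over untreated 24 h and the y axis the percentage of genes per bin, for all 11713 genes tested (grey) and the 48 proteasome genes (line), with FPKM as deposited (top) and after median-ratio scaling (bottom). The proteasome genes lie left of 0 in the upper panel, and in the lower panel their median is -0.185 with 4 genes above 0.

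After 24 h of exposure to TPN, 6 members were higher than in untreated spheroids and 0 were lower. In all genes tested, 5.04% were higher and 5.46% lower. PSMD11, PSMD12 and PSMD14 belong to the lid, PSMA3 and PSMB1 to the core, and PSME4 encodes PA200, a nuclear activator that caps the core without ATPase activity. All changes were small, between 0.10 and 0.25 in log2. At an unadjusted p below 0.05 limma passed 13 of the 48 members and 23.9% of all genes, a similar share, and PSME2 was the only one of them with a lower level under TPN (109, 117 and 122 FPKM against 124, 131 and 127 FPKM untreated, -0.13, adjusted p = 0.128). The median log2 fold change was 0.02 over the members and 0.00 over all genes.

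PSMD11, a subunit that clamps the lid to the rest of the complex, had 30.4, 29.2 and 29.6 FPKM in the untreated and 35.2, 35.2 and 35.8 FPKM in the exposed libraries. Every exposed library was above every untreated one, with a log2 fold change of 0.25 ± 0.04 (SE, adjusted p = 0.000429). PSME4 had 24.9, 24.9 and 24.3 FPKM without and 28.4, 28.6 and 28.7 FPKM with TPN, a change of 0.21 ± 0.03 (adjusted p = 0.00107). These were the 2 members whose call held without each library in turn.

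PSMD12, another lid subunit, had 18.4, 18.5 and 18.8 FPKM in untreated and 20.1, 21.0 and 20.4 FPKM in exposed spheroids (0.14 ± 0.03, adjusted p = 0.0122). The call ended when replicate 2 of TPN at 24 h was left out (0.13, adjusted p = 0.0572). PSMD14, the deubiquitinase of the lid, had 93.4, 90.3 and 90.7 FPKM without and 96.7, 99.5 and 102 FPKM with TPN (0.12 ± 0.03, adjusted p = 0.0266). Its groups did not overlap either, but the call ended without replicate 2 or 3 of either group, with log2 fold changes of 0.10 to 0.12.

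In the core, PSMA3 rose from 144, 148 and 144 FPKM to 161, 155 and 155 FPKM (0.11 ± 0.03, adjusted p = 0.0415). PSMB1 rose from 281, 290.0 and 285 FPKM to 312, 303 and 299 FPKM (0.10 ± 0.02, adjusted p = 0.0217). The groups were separate in both genes. The call of PSMA3 ended without any of the 6 libraries of 24 h or without replicate 3 of untreated 144 h (adjusted p between 0.0519 and 0.153). That of PSMB1 ended without replicate 1 or 3 of untreated 24 h, or without replicate 1 or 2 of TPN 24 h (0.08 to 0.10). The count of higher members fell from 6 to 3 without replicate 3 of untreated 24 h and without replicate 2 of TPN 24 h.

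**Figure D3:**
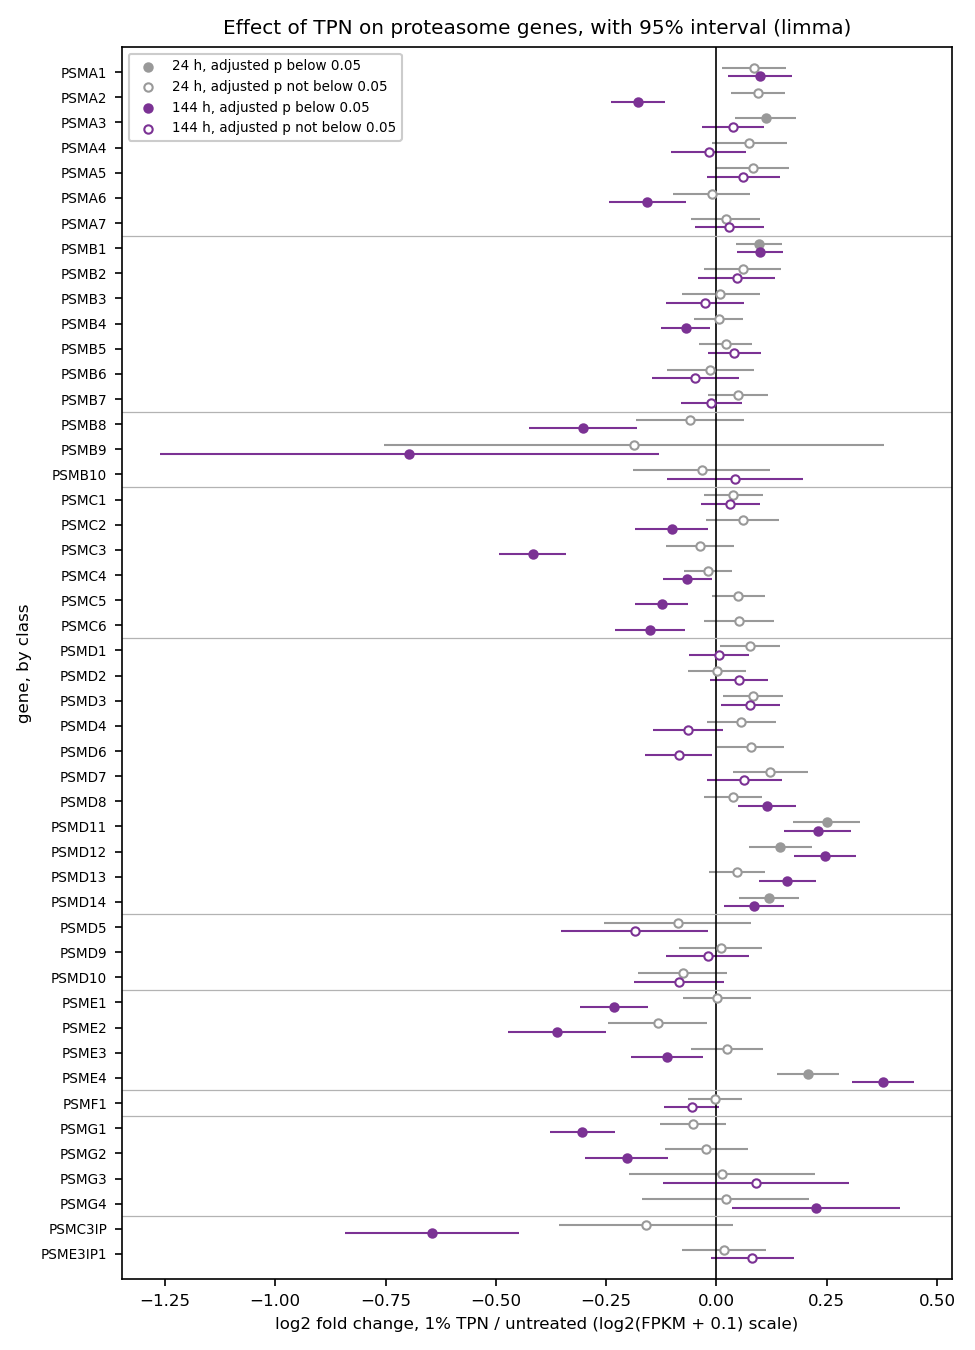
Points are log2 fold changes of TPN over untreated spheroids at 24 h (grey) and 144 h (purple) on the log2(FPKM + 0.1) scale, bars their 95% intervals from limma, filled points those with an adjusted p below 0.05, and rows the 48 genes by class. At 144 h, 5 of the 6 ATPases (PSMC) are filled to the left of 0 and 5 of the 8 lid genes (PSMD3, PSMD6 to PSMD8 and PSMD11 to PSMD14) to the right.

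After 144 h of exposure, 9 members were higher and 16 were lower than in untreated spheroids of the same age, compared with 24.2% and 28.3% of all genes. By class the calls went in different directions. Of the 8 lid genes 5 rose and none fell, with a median of 0.10, and of the 6 ATPases 5 fell and none rose, with a median of -0.11, where the median of all genes was -0.02. Of the 4 activators 3 fell and PSME4 rose. Of the 4 core chaperones PSMG1 and PSMG2 fell and PSMG4 rose. The scaffold genes PSMD1 and PSMD2 and the 3 chaperones of the base, PSMD5, PSMD9 and PSMD10, did not pass the test.

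Summed over the 6 ATPases, the level was 369.6, 373 and 381 FPKM in the untreated and 331, 327 and 339 FPKM in the exposed libraries. Summed over the 8 lid genes it was 463, 445 and 458 FPKM in the untreated and 483, 484 and 486 FPKM in the exposed libraries. In both sums the groups were separate, in opposite directions. The mean ATPase sum went from 374.4 to 332.3 FPKM, and PSMC3 alone went from 95.3 to 71.4 FPKM, so the fall was uneven among the ATPases. The α ring summed to 748 ± 10.5 and 744 ± 11.8 FPKM (SD, n = 3) and the constitutive β ring to 1013 ± 5.25 and 1019 ± 24.9 FPKM, and there the groups overlapped.

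**Figure D4:**
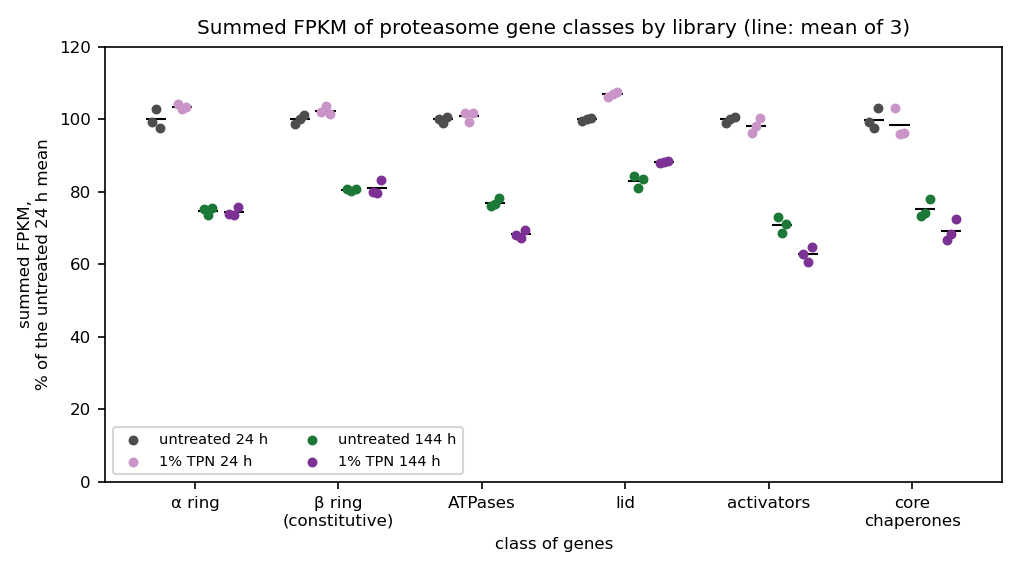
The y axis is the summed FPKM of a class in percent of its mean in untreated spheroids at 24 h, points are libraries and lines the mean of 3. At 144 h the exposed libraries lie below the untreated ones for the ATPases and above them for the lid, and the groups overlap for the α and β rings.

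Among the ATPases, PSMC3, which contacts the ubiquitin chain, had 94.9, 95.1 and 95.9 FPKM in untreated and 71.5, 69.7 and 73.0 FPKM in exposed spheroids. The exposed libraries were thus well below the untreated ones, with a log2 fold change of -0.42 ± 0.04 (SE, adjusted p = 4.4e-07). At 24 h its values overlapped, with 123, 122 and 128 FPKM without and 127, 115 and 122 FPKM with TPN. Relative to PSMC4, another ATPase of the ring, the level of PSMC3 was 129% ± 3.28 and 127% ± 7.38 (SD, n = 3) at 24 h without and with TPN, and 134% ± 1.29 and 105% ± 0.802 at 144 h. PSMC6 fell by 0.15 and PSMC5 by 0.12, and their calls held without each library in turn. PSMC2 (-0.10, adjusted p = 0.0409) and PSMC4 (-0.07, adjusted p = 0.0426) each lost the call in 9 of the 12 fits without 1 library (adjusted p up to 0.156 and 0.216 over all alternatives). The call of PSMC2 held without replicate 1 or 2 of untreated 24 h or replicate 1 of TPN 144 h, and that of PSMC4 without replicate 3 of TPN 24 h, replicate 2 of untreated 144 h or replicate 3 of TPN 144 h. PSMC1 was not called (0.03, 95% interval -0.04 to 0.10).

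Among the lid genes, PSMD12 had 15.2, 14.9 and 14.8 FPKM without and 17.6, 17.9 and 17.8 FPKM with TPN, a rise of 0.25 ± 0.03 (adjusted p = 3.14e-05). PSMD11 had 24.2, 22.6 and 24.0 FPKM without and 28.3, 26.9 and 27.8 FPKM with TPN (0.23 ± 0.04, adjusted p = 0.000101). Both lid genes were higher under TPN at either time, with separate groups. PSMD13 had 49.7, 49.2 and 51.5 FPKM in untreated and 54.4, 57.6 and 56.2 FPKM in exposed spheroids (0.16 ± 0.03, adjusted p = 0.000455). PSMD8 had 77.4, 77.4 and 81.0 FPKM in untreated and 86.9, 83.0 and 85.5 FPKM in exposed spheroids (0.11 ± 0.03, adjusted p = 0.00645). Neither had passed the test at 24 h, where PSMD13 had 59.7, 59.1 and 60.5 FPKM without and 61.3, 61.5 and 62.3 FPKM with TPN, and PSMD8 had 98.9, 95.6 and 95.6 FPKM without and 100.0, 101 and 96.5 FPKM with TPN. PSMD14, with 80.0, 74.8 and 77.5 FPKM without and 81.9, 83.7 and 80.8 FPKM with TPN (0.09, adjusted p = 0.0344), lost the call without replicate 2 or 3 of the untreated or replicate 1 or 2 of the exposed group.

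PSME4 rose most of all members. Its libraries had 23.6, 23.2 and 22.0 FPKM without and 29.9, 30.2 and 29.5 FPKM with TPN, and the log2 fold change was 0.38 ± 0.03 (SE, adjusted p = 5.42e-07). The exposed libraries at 144 h were also above all 6 libraries of 24 h. The other activators went the opposite way. PSME2 had 76.4, 74.7 and 82.0 FPKM without and 60.1, 56.7 and 64.7 FPKM with TPN (-0.36 ± 0.05, adjusted p = 5.62e-05), and PSME1 fell from 97.8 ± 5.25 to 83.2 ± 1.98 FPKM (SD, n = 3, -0.23, adjusted p = 9.51e-05). PSME3, with 49.5, 46.2 and 46.0 FPKM without and 43.4, 42.0 and 45.7 FPKM with TPN, was lower by a smaller amount (-0.11, adjusted p = 0.0244), and the call ended without replicate 1 of the untreated or replicate 1 or 2 of the exposed group.

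**Figure D5:**
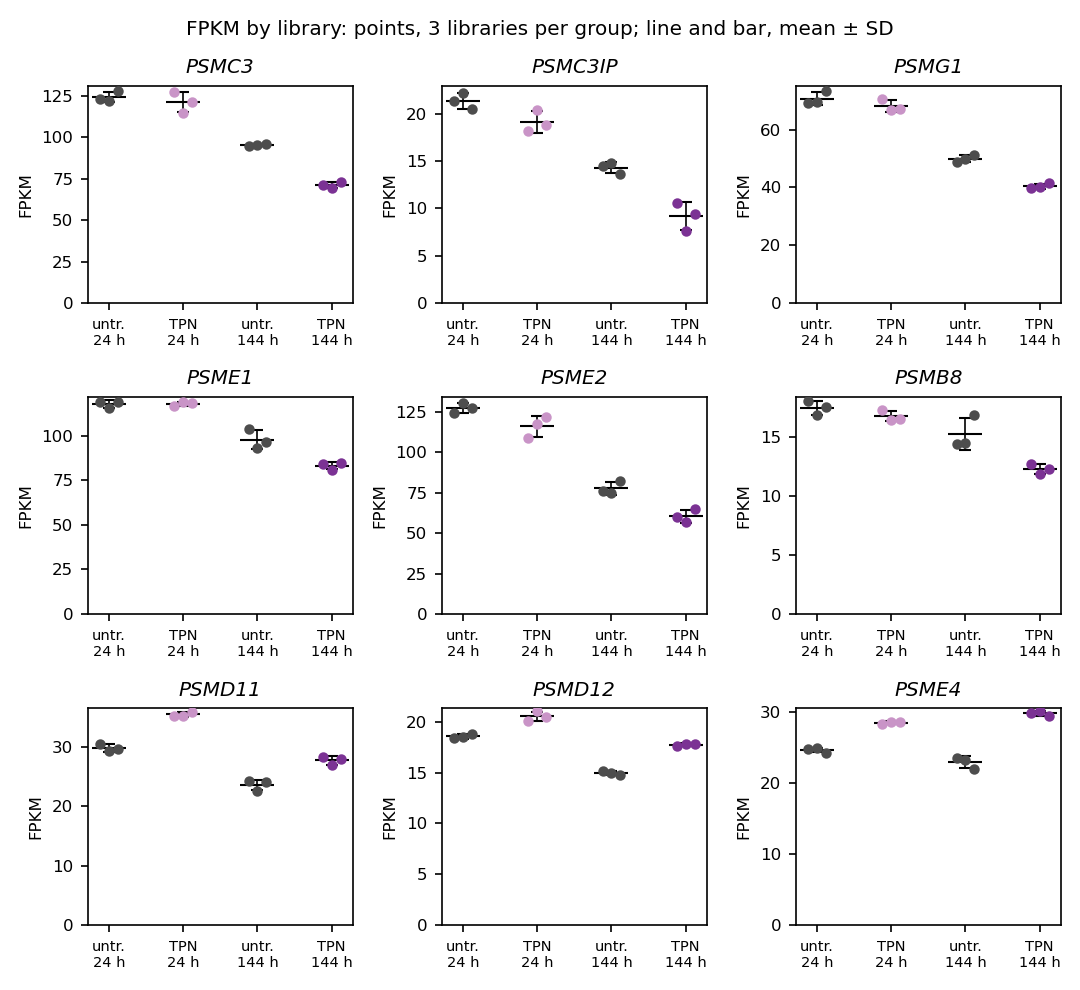
Each panel gives the FPKM of 1 gene (y axis, from 0) by group (x axis), with points for the 3 libraries and the mean ± SD. PSMC3, PSMC3IP, PSMG1, PSME1, PSME2 and PSMB8 are lower under TPN at 144 h, whereas PSMD11, PSMD12 and PSME4 are higher under TPN at both times.

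None of the 3 constitutive catalytic subunits passed the test at either time. At 144 h, PSMB5, the chymotrypsin-like site, had 152, 151 and 147 FPKM without and 151, 152 and 161 FPKM with TPN (0.04, 95% interval -0.02 to 0.10). PSMB6, the caspase-like site, had 129, 131 and 133 FPKM without and 126, 118 and 137 FPKM with TPN (-0.05, interval -0.15 to 0.05). PSMB7, the trypsin-like site, had 133, 137 and 140.3 FPKM without and 136, 134 and 136 FPKM with TPN (-0.01, interval -0.08 to 0.06). The intervals do not reach a change of 0.2 in log2 in either direction, although PSMB6 passed the test, at -0.11 (adjusted p = 0.0377), without replicate 3 of TPN 144 h. At 24 h, PSMB5 had 175, 176 and 173 FPKM without and 178, 177 and 177 FPKM with TPN. PSMB6 had 180.2, 177 and 188 FPKM without and 178, 187 and 176 FPKM with TPN. PSMB7 had 157, 168 and 170.1 FPKM without and 168, 171 and 173 FPKM with TPN. The log2 fold changes of these 3 genes at 24 h were between -0.01 and 0.05.

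Of their interferon-inducible counterparts, PSMB8 had 14.4, 14.5 and 16.8 FPKM without and 12.7, 11.9 and 12.3 FPKM with TPN at 144 h, with separate groups and a log2 fold change of -0.30 ± 0.06 (SE, adjusted p = 0.000533). At 24 h it had 18, 16.8 and 17.5 FPKM without and 17.2, 16.5 and 16.5 FPKM with TPN, and the groups overlapped. PSMB9 had 1.74, 1.15 and 1.12 FPKM without and 1.23, 0.64 and 0.57 FPKM with TPN at 144 h (-0.70 ± 0.26, adjusted p = 0.0391). Here the groups overlapped, and the call ended without replicate 1 of the untreated group (-0.51), without replicate 2 of the exposed group (-0.58) and without replicate 3 of the exposed group (-0.51). At 24 h PSMB9 had 2.44, 2.0 and 2.47 FPKM with TPN, within the range of the untreated libraries.

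PSMB10 had 15.4, 14 and 14.8 FPKM without and 14, 14.8 and 16.8 FPKM with TPN at 144 h, and 22.6, 22.0 and 22.9 FPKM with TPN at 24 h. It was not called in either comparison (0.04, interval -0.11 to 0.20 at 144 h). As a share of the constitutive subunit it can replace, PSMB8 stood at 10.0% ± 0.376 and 9.45% ± 0.223 of PSMB5 at 24 h without and with TPN, and at 10.1% ± 1.11 and 7.97% ± 0.43 at 144 h (SD, n = 3). PSMB9 stood at 1.02% ± 0.285 and 0.645% ± 0.295 of PSMB6 at 144 h, and PSMB10 at 10.8% ± 0.748 and 11.2% ± 1.02 of PSMB7.

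Among the other core genes at 144 h, PSMA2 had 61.7, 60.6 and 62.8 FPKM without and 54.1, 54.1 and 55.4 FPKM with TPN, a decrease of 0.18 ± 0.03 in log2 (adjusted p = 0.000155). At 24 h its exposed libraries had been slightly above the untreated ones, with 85.0, 81.9 and 87.0 FPKM against 80.0, 79.2 and 78.6 FPKM, without passing the test (0.09, adjusted p = 0.0528). PSMA6 fell by 0.16 at 144 h. PSMB1 was higher at 144 h as at 24 h, with 243, 241 and 239 FPKM without and 258, 257 and 260.1 FPKM with TPN (0.10, adjusted p = 0.00367). PSMA3 was not called at 144 h, with 109.5, 101 and 107 FPKM without and 111, 106 and 109 FPKM with TPN. PSMA1 (0.10, adjusted p = 0.0242) lost the call without replicate 2 of untreated 144 h or replicate 3 of TPN 144 h, and PSMB4 (-0.07, adjusted p = 0.0368) without any library of 144 h other than replicate 2 of the untreated group (adjusted p up to 0.118).

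The assembly chaperones of the core, which help the α subunits to form a ring, fell and rose. PSMG1 went from 49.9 ± 1.18 to 40.4 ± 0.93 FPKM (SD, n = 3, -0.30, adjusted p = 6.75e-06), and its partner PSMG2 from 32.2 ± 0.206 to 28.0 ± 0.482 FPKM (-0.20, adjusted p = 0.00147). PSMG4 had 17.3, 18.7 and 21.3 FPKM without and 21.8, 22.3 and 22.8 FPKM with TPN (0.23 ± 0.09, adjusted p = 0.0457), and the call ended in 7 of the 12 fits without 1 library, at 0.16 (adjusted p = 0.181) without replicate 1 of untreated 144 h. These left out replicate 3 of either group of 24 h, replicate 1 or 2 of untreated 144 h, or any library of TPN 144 h. At 24 h it had 23.9, 27.1 and 24.7 FPKM without and 29.3, 22.3 and 25.6 FPKM with TPN, and the groups overlapped. Its partner PSMG3 was not called (0.09, adjusted p = 0.468). PSMC3IP, which acts with recombinases in meiosis and takes its name from binding PSMC3, had 14.5, 14.8 and 13.7 FPKM without and 10.6, 7.57 and 9.41 FPKM with TPN (-0.64 ± 0.09, adjusted p = 5.2e-05). PSMC3IP and PSMB9 were the 2 members that fell past a log2 fold change of 0.58, as did 3.73% of all genes, and 0 members rose past it.

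Some of these genes overlap others in position, and whether reads were shared was not examined. Among others, PSMC3IP overlaps MLX, PSMC5 overlaps FTSJ3, PSMC2 overlaps PMPCB and SLC26A5, and PSMG2 overlaps SPIRE1 and CEP76 in RefSeq. PSMA3, PSMB8 and PSMD6 have antisense transcripts. The library kit keeps the strand per the labels, and how the strand was used in counting is not given in the sources used here. PSMB3, PSMB8, PSMB9, PSMC4, PSME1 and PSME2 are placed on an alternate scaffold in the table, so their reads may have been split between copies of the region and their levels are uncertain.

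The effect of TPN differed between the times in 13 members, by the interaction term of the model. It was lower at 144 h than at 24 h in 12 and higher in 1, compared with 16.3% and 14.1% of all genes. The ATPases PSMC2, PSMC3, PSMC5 and PSMC6, the activators PSME1 and PSME2, the chaperones PSMG1 and PSMG2, PSMA2, PSMB8, PSMD6 and PSMC3IP had the lower effect, and PSME4 the higher one. The difference was -0.49 ± 0.13 (SE, adjusted p = 0.0123) in PSMC3IP, -0.38 ± 0.05 (adjusted p = 0.000104) in PSMC3, -0.27 ± 0.04 (adjusted p = 0.000255) in PSMA2 and 0.17 ± 0.05 (adjusted p = 0.0143) in PSME4. PSMC3IP had 21.4, 22.2 and 20.5 FPKM without and 18.2, 20.4 and 18.8 FPKM with TPN at 24 h, where it was not called. PSMD6, a lid gene, was called in neither comparison with untreated spheroids, at 0.08 and -0.09. The other lid genes did not pass this test. The calls of PSMB8, PSMC2, PSMD6, PSME2 and PSMG2 ended in 6 to 9 of the 12 fits without 1 library, with adjusted p up to 0.0833, 0.0961, 0.0631, 0.0758 and 0.101, and the count of members with a lower effect went from 12 to 7 without replicate 3 of untreated 144 h.

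Hepatocyte markers were also lower under TPN. At 144 h, 8 of 10 fell and none rose, where 28.3% of all genes fell and 24.2% rose. Their summed level ran from 17410 to 18830 FPKM without and from 12840 to 13880 FPKM with TPN. ALB fell by 0.65 and AFP by 0.69. At 24 h, 5 of 10 fell, where 5.46% of all genes did, with sums of 16330 to 16640 and 14840 to 14990 FPKM. Of the 9 stellate markers tested, 5 fell and 1 rose at 144 h, with COL1A1 at 1.92 and 0.747 FPKM. The part of these markers in the changes of the proteasome genes was not tested.

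Genes that act with the proteasome were counted by list, with 1 to 3 of the largest changes at 144 h named. Counts of higher and lower genes are calls in limma. Of all genes, 5.04% were called higher and 5.46% lower at 24 h, and 24.2% and 28.3% at 144 h. An unadjusted p below 0.05 in limma at 24 h was found in 23.9% of all genes. Of 18 proteasome partners without a PSM name, 3 were higher and 0 lower after 24 h in limma, where 8 had an unadjusted p below 0.05, and 6 were higher and 4 lower after 144 h. ZFAND5, which binds and activates the 26S proteasome, went from 13.3 to 16.6 FPKM at 24 h (0.32, adjusted p = 5.29e-05) and from 16.4 to 21.2 FPKM at 144 h (0.37, adjusted p = 1.09e-06). AKIRIN2, which brings the proteasome into the nucleus, went from 27.1 to 34.2 and from 17.5 to 22.0 FPKM (0.34 and 0.32). Both were higher under TPN at either time, while UCHL5, a deubiquitinase of the cap, fell at 144 h (-0.30, adjusted p = 0.000131), and its interaction was -0.36 (adjusted p = 0.00145).

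Around NFE2L1, 14 genes were counted, and 24 h of exposure raised 4 and lowered 1 of them, 144 h raised 6 and lowered 3, with medians of -0.02 and 0.10. MAFG, a small MAF protein that pairs with NFE2L1 and NFE2L2, went from 14.2 to 17.5 FPKM at 24 h and from 17.1 to 24.8 FPKM at 144 h (0.31 and 0.53). MAFK rose at 144 h from 21.5 to 29.9 FPKM (0.48, adjusted p = 0.000292). The mRNA of NFE2L2 fell at both times, by 0.31 and 0.40. A further list of 19 genes held shuttle factors and adaptors of the unfoldase VCP, and also chaperones such as DNAJB1 and HSPA1B. Of these 19 genes, 24 h of exposure raised 3 and lowered 1, and 144 h raised 3 and lowered 7. SQSTM1, the ubiquitin receptor p62, rose from 123 ± 5.14 to 249 ± 5.73 FPKM at 24 h and from 129 ± 2.1 to 349 ± 13.9 FPKM at 144 h (SD, n = 3, log2 fold changes 1.02 and 1.44). The chaperone DNAJB1 fell at both times (-0.11, adjusted p = 0.0476, and -0.62). HSPA1B rose from 129 to 159 FPKM at 24 h (0.30, adjusted p = 0.00126) and fell at 144 h (-0.42), with an interaction of -0.72 (adjusted p = 8.59e-06).

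Of 16 genes of ubiquitin supply, 2 were higher and 1 lower after 24 h, compared with 5 and 4 after 144 h. UBE2C, a ubiquitin-conjugating enzyme of mitosis, fell by 0.28 and 0.56, while UBE2S, its partner enzyme, rose by 0.40 at 144 h. Of 15 genes of MHC class I antigen processing, the pathway that uses peptides cut by the immunoproteasome, 0 were higher and 3 lower after 24 h in limma, where 5 had an unadjusted p below 0.05, compared with 3 and 7 after 144 h, with medians of -0.10 and -0.09. HLA-B fell from 10.5 to 4.84 FPKM at 144 h (-1.10, adjusted p = 2.04e-07) and NLRC5 from 1.24 to 0.84 FPKM (-0.52, adjusted p = 0.00151). HLA-E rose by 0.35. Of 15 interferon response genes 10 were tested, of which 0 were higher and 1 lower after 24 h (4 had an unadjusted p below 0.05) and 4 higher and 1 lower after 144 h. At 144 h OAS1 rose from 2.27 to 7.55 FPKM (1.69, adjusted p = 9.96e-09), UBE2L6 by 0.56 and IRF1 by 0.32. PSMB8, PSME1 and PSME2 were lower in the same libraries, and whether these changes are linked was not tested.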

How the data were processed

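The authors pooled spheroids for each library, filtered the reads, mapped them with HISAT2 2.0.4 to GRCh38 p13 and with Bowtie2 2.2.5 to reference transcripts, and calculated FPKM with RSEM. The FPKM values were used as deposited. FPKM depends on the sum over all genes, so abundant genes can shift the rest. The authors tested counts with DESeq2, and counts were not used here. From the table, 20 lines that named no gene were dropped. Genes with a mean of at least 0.5 FPKM (11713) entered a limma model (limma 3.58.1, R 4.3.3) of log2(FPKM + 0.1), with 4 group means over the 12 libraries, an intensity trend and Benjamini-Hochberg adjustment over all genes. A call is an adjusted p below 0.05. Fold changes on this scale understate those of low genes. The procedure was tested on simulated data.

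Values by library are given for the 6 members that rose most and the 4 that fell most in each exposure comparison, the catalytic subunits and their inducible counterparts, the 3 largest interactions in each direction, and the 3 largest changes with time. For the other lists, up to 3 genes with the largest change at 144 h are given. UBE2D1, TF, COL3A1 and COL1A2 also met these criteria and are not described. Some further members, named for their class, were chosen after their values were seen. Members and lists were chosen with earlier results of these data known. Replicates are separate samples in the labels, and the authors state that the data come from 3 independent experiments. The p-values measure the spread between the samples, which may be technical in part. The fit held no replicate block. Python 3.11.15, numpy 2.4.6, pandas 2.3.3 and matplotlib 3.10.9 were used.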

Additional observations from a re-analysis of the deposited data

Results flagged for a closer look

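In 13 members the response to TPN was not the same at both times by the interaction test. As the log2 effect at 144 h minus that at 24 h, the difference was -0.49 in PSMC3IP, -0.38 in PSMC3, -0.27 in PSMA2, -0.25 in PSMG1, -0.24 in PSMB8, -0.23 in PSME1, -0.23 in PSME2, -0.20 in PSMC6, -0.18 in PSMG2, -0.17 in PSMC5, -0.16 in PSMD6, -0.16 in PSMC2 and 0.17 in PSME4. Without each of the 12 libraries in turn, 8 of the 13 calls held (PSMA2, PSMC3, PSMC3IP, PSMC5, PSMC6, PSME1, PSME4 and PSMG1).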

How the results depend on the processing

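Of 34 values by gene, 21 kept their direction and their side of the threshold in every alternative, 6 lost the call in some alternative, 2 gained one and 6 changed sign in some. The values that changed sign were not called in the fit reported. Without 1 library in turn, PSMB6 ran from -0.04 to 0.011 at 24 h (above 0 without replicate 3 of either group) and from -0.106 to 0.004 at 144 h (above 0 without replicate 2 of TPN). PSMB7 at 144 h ran from -0.033 to 0.006 (above 0 without replicate 3 of the untreated group) and was 0.028 with quantile normalization. PSMB9 at 24 h ran from -0.414 to 0.036 (above 0 without replicate 1 of the untreated group). PSMB10 ran from -0.08 to 0.046 at 24 h (above 0 without replicate 3 of the untreated group) and from -0.031 to 0.099 at 144 h (below 0 without replicate 3 of TPN). PSMB5 at 144 h passed the test with quantile normalization (0.07, adjusted p = 0.0284), PSMB1 at 144 h lost the call with it, and PSMB9 at 144 h lost the call with a pseudocount of 1 (-0.37, adjusted p = 0.0702), without a filter and without the intensity trend.

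With the fold threshold added to the call, 0 members were higher at 24 h, 0 higher and 2 lower at 144 h, 0 differed in effect between the times in either direction, and 5 were lower with time. Without the intensity trend, 3 members were higher at 24 h. The interaction was higher in 2 members without a filter, with a filter at a mean of 5 FPKM and with quantile normalization. Leaving out 1 library gave 3 to 7 higher members at 24 h, 6 to 10 higher and 11 to 16 lower at 144 h, 1 to 2 higher and 7 to 11 lower for the interaction, and 47 to 48 lower with time. The median change of the members with time was -0.36, and -0.185 and -0.191 after median-ratio and quantile normalization. The cause of these changes was not tested.

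Groups share replicate numbers, which the labels do not tie to a common batch. The 18 correlations of the deviations of same-numbered libraries had a median of 0.0455 (from -0.083 to 0.151), against -0.016 for differently numbered ones. They were not all above 0.1, the criterion for a pairing. A weak pairing could fail this criterion, so it cannot decide whether the numbers mark a pairing. As a hint from the data, 8 of 12 libraries correlated best with one of their own number. A fit with the replicate number as a block gave 7 higher members at 24 h, 9 higher and 17 lower at 144 h, and 48 lower with time. At 144 h PSMG4 was then no longer called (adjusted p = 0.0592), PSMD3 was called higher (0.0324) and PSMD6 lower (0.0323), and at 24 h PSMA2 was called higher (0.0496), and no other member's call changed in any comparison. PSMB11, at 0 in 11 libraries, was not tested, and PSMB9, below 4 FPKM in every library, rests on few fragments.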
